A study of Arabidopsis thaliana with 6 samples.

Results

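The 8 genes described here form group IX-c of the ETHYLENE RESPONSE FACTOR (ERF) family of Arabidopsis thaliana, the clade of ERF1 and ORA59. They are defined by locus code, as the members of that clade, and are ERF1 (AT3G23240), ORA59 (AT1G06160), ERF14 (AT1G04370), ERF15 (AT2G31230), ESE1 (AT3G23220), ERF98 (AT3G23230), ERF96 (AT5G43410) and ERF91 (AT4G18450). Each had 1 row, so the members were 8 of 30237 rows in the table. The name table used here gives ERF98 as TDR1 and has only the locus code for ERF96 and ERF91.

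Leaf 3 was dissected from Col-0 seedlings at an age labelled 9 DAS, and its total RNA was hybridised to AGRONOMICS1 tiling arrays. There were 3 arrays of ERF6:IOE, a line described as a strong overexpressor of ERF6, and 3 of the control line GFP:IOE, with biological repeats numbered 1 to 3 in each. Seedlings of both lines had spent 4 h on 5 µM dexamethasone, so the steroid was common to all arrays. Each genotype was represented by 1 line, and the sources used here do not give the promoter that drives the introduced gene. No array taken before induction entered the comparison, and differences that preceded dexamethasone cannot be told apart from later ones.

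ERF proteins carry an AP2/ERF domain that binds DNA, and many of them recognise the GCC box in promoters of defence genes. Jasmonate releases transcription factors from JAZ repressors, and ethylene stabilises the factors EIN3 and EIL1, which switch on ERF1 and other ERF genes. ERF1 and ORA59 are known as points where both hormone signals meet, and ORA59 in particular is needed for jasmonate and ethylene to induce the defensin gene PDF1.2. The alternative jasmonate branch, led by MYC2, serves wounding responses and opposes the ERF branch.

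ORA59 and ERF15 rose in ERF6:IOE, and none of the other 6 members passed the test. The test was limma on all rows with Benjamini-Hochberg adjustment and a threshold of 0.05, and the values below are log2 expression on the scale of RMA, in which 1 unit is a 2-fold difference. With it 0.698% of all rows were higher in ERF6:IOE and 0.0265% lower, 0.724% in all, against 2 of 8 members higher and 0 lower. At an unadjusted p under 0.05, 3 members were higher and 0 lower, where 4.8% of all rows were higher. The median log2 fold of the members was 0.11, beside -0.02 over all rows.

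ERF6 itself, the introduced gene, stood at 9.99, 9.97 and 10.42 in ERF6:IOE repeats 1 to 3 and at 6.89, 7.38 and 7.55 in GFP:IOE. Its higher level in every ERF6:IOE array matches the labels. The difference within the repeats was 3.09, 2.59 and 2.87. The arrays did not separate transcript of the introduced copy from that of the resident copy.

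ORA59, the integrator of jasmonate and ethylene signals upstream of PDF1.2, had values of 7.35, 7.24 and 7.20 in ERF6:IOE repeats 1 to 3. In GFP:IOE it stood at 4.56, 4.27 and 4.10. The lines were far apart, and the gap between them was many times the spread inside either line. The log2 fold was 2.95 (95% interval 2.64 to 3.27), or 7.73-fold (6.21 to 9.61), with an adjusted p of 0.000129 (limma). Among upward differences over all rows it ranked number 17. Within repeats 1, 2 and 3 the difference was 2.79, 2.97 and 3.09, while that of ERF6 was lowest in repeat 2. In GFP:IOE the ORA59 row lay above the lower quartile of each array, though only just on repeat 3 (4.10 against 4.08). Its GFP:IOE mean was at percentile 34.3 of all rows.

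ERF15, known as a positive regulator of abscisic acid responses and of immunity, read 7.72, 7.75 and 7.63 in ERF6:IOE. Its GFP:IOE values were 5.54, 5.50 and 5.76. No array of one line came near the other line. The log2 fold was 2.096 (95% interval 1.84 to 2.35). This is 4.28-fold (limma adjusted p 0.000233), and the upward difference ranked number 38. Its spread was small in both lines, with an SD of 0.06 in ERF6:IOE and 0.14 in GFP:IOE. The difference was 2.18, 2.25 and 1.86 within repeats 1, 2 and 3, so that repeat 3, where ORA59 differed most, was the one where ERF15 differed least.

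ERF98, linked to ascorbate synthesis and salt tolerance, gave 4.91, 5.11 and 4.99 in ERF6:IOE. In GFP:IOE it gave 3.97, 4.56 and 4.17. The lines did not overlap, yet the control arrays scattered widely (SD 0.30) and the gene did not pass the test. Its log2 fold was 0.77 (95% interval 0.39 to 1.14), with an unadjusted p of 0.00178 and an adjusted p of 0.134 (limma). ERF98 was thus the third member, with ORA59 and ERF15, whose lines did not overlap, all higher in ERF6:IOE, where 6.93% of all rows had this pattern. On 1 of the 3 GFP:IOE arrays it lay below the lower quartile of rows, a range in which RMA values are compressed.

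**Figure D1:**
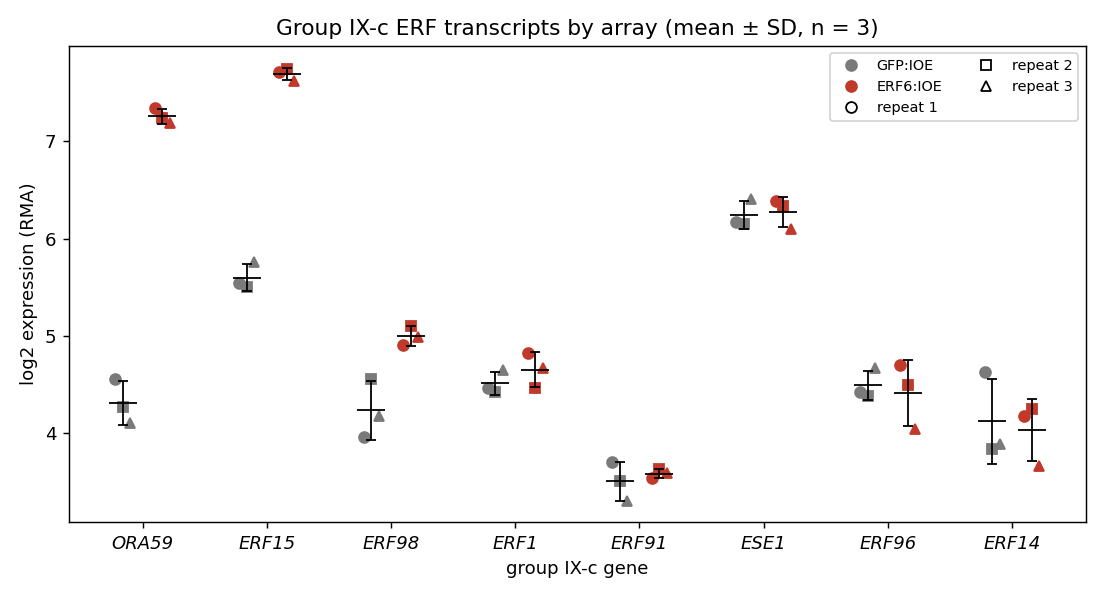
Log2 expression (vertical axis, RMA scale) of the 8 group IX-c genes (horizontal axis) on each array, grey for GFP:IOE and red for ERF6:IOE, with a marker shape for each repeat and bars for the mean ± SD (n = 3). ORA59, ERF15 and ERF98 are the genes whose lines do not overlap, and heights compare lines within a gene, not genes with each other.

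ERF1, the founding member of the clade and a classic direct target of EIN3, showed no such gap. It stood at 4.82, 4.47 and 4.67 in ERF6:IOE and at 4.47, 4.42 and 4.65 in GFP:IOE, and the lines overlapped. The log2 fold was 0.14 (adjusted p 0.871, limma), and its 95% interval ran from 0.90-fold to 1.35-fold. In the measured values, a rise of ERF1 as large as that of ORA59 or ERF15 therefore lay outside the interval. The ERF1 row was at percentile 43.0 of all rows, and whether the gene was detected was not assessed.

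ESE1, an ethylene- and salt-inducible ERF, had values of 6.39, 6.33 and 6.10 in ERF6:IOE against 6.17, 6.15 and 6.41 in GFP:IOE. The ranges overlapped almost entirely, and the log2 fold was 0.03 with a 95% interval from 0.84-fold to 1.25-fold (limma adjusted p 0.974). Its row was not a dim one, at percentile 73.4 of all rows.

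ERF96, a small ERF that activates defence genes, read 4.70, 4.50 and 4.04 in ERF6:IOE and 4.43, 4.38 and 4.67 in GFP:IOE. The log2 fold was -0.08, with a 95% interval from 0.71-fold to 1.27-fold (limma adjusted p 0.961). Like ESE1, ERF96 was higher in ERF6:IOE in repeats 1 and 2 and lower in repeat 3. The repeat 3 difference was -0.63 for ERF96 and -0.31 for ESE1.

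ERF14, reported to be needed for ethylene-dependent defence gene expression, stood at 4.18, 4.25 and 3.67 in ERF6:IOE and at 4.63, 3.84 and 3.89 in GFP:IOE. It had the widest interval of the members, from 0.63-fold to 1.40-fold around a log2 fold of -0.09 (limma adjusted p 0.965). ERF91 had 3.54, 3.63 and 3.59 in ERF6:IOE and 3.70, 3.50 and 3.31 in GFP:IOE, a log2 fold of 0.08 (0.87-fold to 1.29-fold, limma adjusted p 0.937). ERF91 lay below the lower quartile of rows on all 6 arrays and ERF14 on 3 of 6. Low RMA values are compressed, and whether either gene was detected was not assessed.

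**Figure D2:**
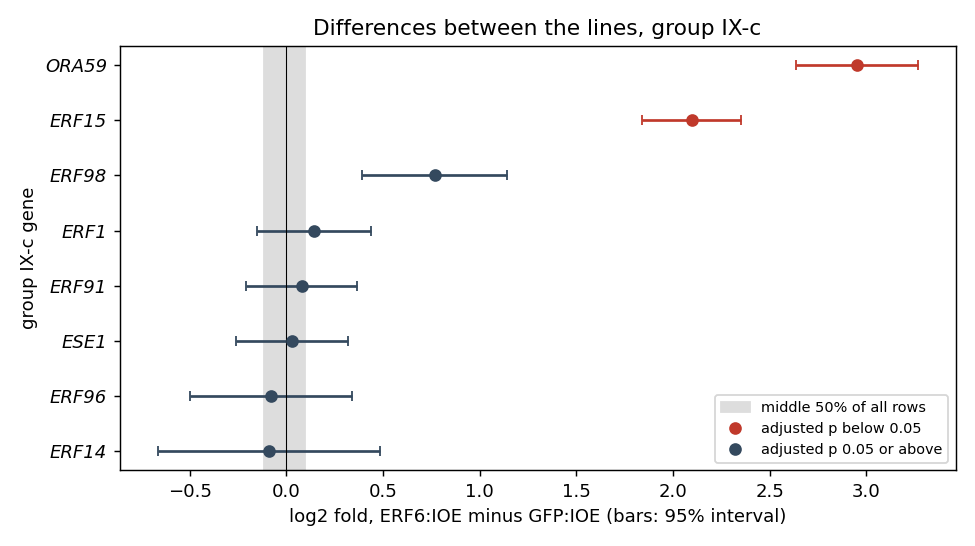
Log2 fold of ERF6:IOE minus GFP:IOE (horizontal axis) for the 8 group IX-c genes (vertical axis), with 95% intervals from the fit to all rows, red where the adjusted p was below 0.05. The grey band spans the middle 50% of all rows, and the intervals of ORA59, ERF15 and ERF98 lie above it while the other 5 cross 0.

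How far the members differed among themselves was measured by subtracting the ORA59 value from that of each other member on the same array. This within-array difference was smaller, or more negative, in the ERF6:IOE arrays for all 7 other members. For ERF15 it was 1.29 ± 0.34 in GFP:IOE and 0.44 ± 0.07 in ERF6:IOE (SD, n = 3), so that the rise of ERF15 was smaller than that of ORA59 by a log2 difference of -0.85. For the other 6 the shortfall from the ORA59 fold ran from -2.18 (ERF98) to -3.04 (ERF14), with -2.81 for ERF1. Since ORA59 had the largest fold of the members, the sign of all 7 differences was fixed by using it as the reference, and the 7 share its values, so they are a description. The two-sided exact permutation p was 0.1 for each, the smallest that 3 arrays against 3 allow, so this test could not reach 0.05. For ERF14 and ERF91, in the compressed low range on 3 and 6 arrays, the shortfall is approximate.

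**Figure D3:**
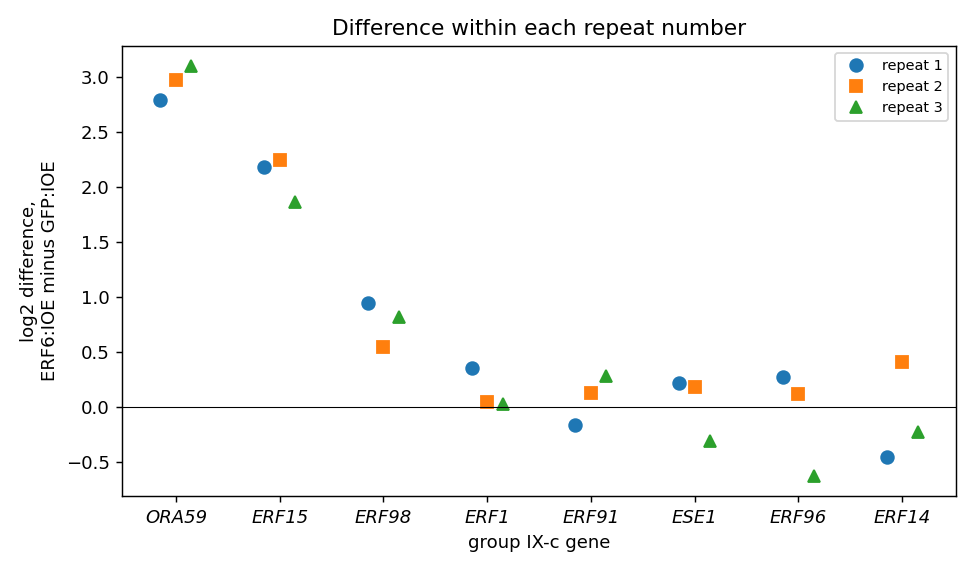
Log2 difference of ERF6:IOE minus GFP:IOE (vertical axis) within repeat numbers 1, 2 and 3 for each group IX-c gene (horizontal axis). ORA59, ERF15 and ERF98 are above 0 in all 3 repeats by at least 0.55, ERF1 is above 0 by 0.35 or less, and ERF91, ESE1, ERF96 and ERF14 lie on both sides of 0.

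ESE1, ERF98 and ERF1 follow one another in the gene order of the name table, and their differences were unequal. ERF98, the middle gene, had a log2 fold of 0.77 (SE 0.16), between 0.03 (SE 0.12) for ESE1 and 0.14 (SE 0.13) for ERF1. The protein-coding genes on either side of this run, named after their values were seen, were bHLH34 at 0.07 (SE 0.11) and AT3G23245 at 0.20 (SE 0.33). The members that passed, ORA59 and ERF15, lie elsewhere in the genome, on different chromosomes. Signal shared between close relatives was not separated in these values.

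Most measured genes known as outputs of the ERF branch were much higher in ERF6:IOE. Of 7 listed genes 5 had a row (PDF1.2c and PDF1.3 had none). Of the 5, 4 rose and 0 fell, where 0.698% of all rows were called higher and 0.0265% lower. CHIB, described below, did not pass, and the median log2 fold of the 5 was 6.30. The defensin gene PDF1.2, one of these outputs, had 11.71, 10.86 and 11.78 in ERF6:IOE against 5.31, 2.70 and 4.18 in GFP:IOE (log2 fold 7.39, SE 0.60, limma adjusted p 0.00249). The log2 fold was 8.01 without GFP:IOE repeat 1 and 6.70 without GFP:IOE repeat 2. Because the value of 2.70 in GFP:IOE repeat 2 lay below the lower quartile of rows, the size of the PDF1.2 fold is approximate. With repeat 3 left out of both lines its call was lost (limma adjusted p 0.0633). PDF1.2b stood at 12.21, 11.91 and 12.19 against 6.11, 4.81 and 5.52, a log2 fold of 6.62 (limma adjusted p 0.000129). On these arrays both defensin rows were lowest in repeat 2 of each line, whereas ORA59 was not. Signal shared between the related defensin genes was not separated. PDF1.1, listed by the name table as LCR67, read 10.20, 9.47 and 9.45 against 3.53, 3.40 and 3.31 (log2 fold 6.30, limma adjusted p 2.3e-05). Because its control values lay below the lower quartile of rows on all 3 arrays, its fold is approximate. The part of ORA59 in the rise of the output genes was not tested.

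PR4, a chitin-binding defence protein gene induced by ethylene and jasmonate, rose from 5.04, 4.72 and 5.67 to 6.96, 7.54 and 7.72 (log2 fold 2.27, SE 0.28, limma adjusted p 0.0168). This call was lost without GFP:IOE repeat 1 or 2 or ERF6:IOE repeat 2 or 3 (limma adjusted p 0.0645 to 0.0832), and without repeat 1 or 2 of both lines (0.132 and 0.214). The basic chitinase gene CHIB, also listed as an output, had a log2 fold of 0.05 (SE 0.12) and an adjusted p of 0.964 (limma).

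Other group IX genes, the nearest relatives of the clade, held 2 that rose. Of 8 listed, 0 fell and 6 did not pass, with a median log2 fold of 0.21, where 0.698% of all rows were called higher. AT5G61590 stood at 10.10, 10.16 and 10.33 in ERF6:IOE and 9.01, 9.09 and 9.49 in GFP:IOE (log2 fold 1.00, SE 0.15, limma adjusted p 0.037). AT5G07580 read 8.35, 8.37 and 8.43 against 7.60, 7.43 and 7.49 (0.88, SE 0.10, limma adjusted p 0.00976). Of the 8 listed genes, 4 had lines that did not overlap, and 3 of these, with both called genes among them, were higher in ERF6:IOE. Over all rows 13.5% did not overlap in either direction and 6.93% did not overlap and were higher. Both calls were lost in some alternatives. That of AT5G61590 was lost without any 1 array other than GFP:IOE repeat 3 (limma adjusted p 0.0939 to 0.169), and after renewed quantile normalization of all arrays (0.0526). That of AT5G07580 was lost without GFP:IOE repeat 2 or ERF6:IOE repeat 2 or 3 (0.0527 to 0.058). With any 1 repeat left out of both lines, neither passed (up to 0.381 and 0.218). ERF105, a stress-responsive ERF, had the lowest log2 fold of the list at -0.62 (SE 0.16, limma adjusted p 0.272), and its lines did not overlap.

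Repressor ERFs of group VIII-a carry an EAR motif and bind the same GCC box as the activators of group IX. None of the 8 passed the test (limma), but 6 had a positive log2 fold and the median was 0.60, beside -0.02 over all rows. At an unadjusted p under 0.05, 5 of 8 were higher, against 4.8% of all rows. ERF4, a repressor of jasmonate and ethylene responses, had 9.31, 9.31 and 9.69 in ERF6:IOE and 7.96, 8.63 and 8.53 in GFP:IOE. Its log2 fold was 1.06 (SE 0.20), with an adjusted p of 0.0885 (limma). ERF8 had 0.64 (SE 0.11, limma adjusted p 0.0725) and ERF9 0.62 (SE 0.12, limma adjusted p 0.0985). ERF4 and ERF8 each passed in 2 of 16 alternatives, with the filter on dim rows and with the variance trend, and ERF9 in 0 of 16.

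Upstream of the clade, none of 12 ethylene signalling genes passed the test in either direction (limma), and their median log2 fold was -0.02. At an unadjusted p under 0.05 (limma), 2 of the 12 were higher and 0 lower, where 4.8% of all rows were higher. EIL1, a paralog of EIN3 and direct activator of ERF genes, read 6.43, 6.61 and 6.80 in ERF6:IOE against 6.17, 6.32 and 6.19 (log2 fold 0.39, SE 0.12, limma adjusted p 0.388). The lines did not overlap for 2 of the 12 genes, and of these only EIL1 was higher in ERF6:IOE. Over all rows 13.5% did not overlap in either direction and 6.93% did not overlap and were higher. CTR1, the kinase that holds the pathway off without ethylene, had 0.35 (SE 0.14) and the receptor gene ETR2 -0.26 (SE 0.15), with adjusted p-values of 0.58 and 0.771 (limma).

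Among 15 genes of jasmonate perception and its repressors, JAZ6 rose, 0 fell and 14 did not pass, with a median log2 fold of -0.04. Over all rows 0.698% were called higher and 0.0265% lower. At an unadjusted p under 0.05 (limma), 1 of the 15 was higher and 1 lower, where 8.02% of all rows passed in either direction. JAZ6, a JAZ repressor gene, had 7.91, 7.92 and 7.96 in ERF6:IOE and 7.21, 6.94 and 7.09 in GFP:IOE (log2 fold 0.85, SE 0.10, limma adjusted p 0.0162). That call was lost without any 1 array other than GFP:IOE repeat 1 (limma adjusted p 0.0632 to 0.0808), and without any 1 repeat of both lines (up to 0.25). JAZ3, also a JAZ repressor gene, had -0.36 (SE 0.11, limma adjusted p 0.344) and JAZ7 0.28 (SE 0.17, limma adjusted p 0.783).

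The MYC branch, which opposes the ERF branch, had no member past the test. Of 10 genes 4 were positive and 6 negative in log2 fold, with a median of -0.13 and 0 at an unadjusted p under 0.05 (limma). CORI3, a jasmonate-induced gene of the cystine lyase type, was the lowest at -0.44 (SE 0.19, limma adjusted p 0.626). MYC3 had 0.23 (SE 0.10, limma adjusted p 0.652) and ANAC055, a NAC factor downstream of MYC2, 0.24 (SE 0.15, limma adjusted p 0.794). None of 9 genes reported to act on ORA59 or PDF1.2 passed either (limma), with a median of 0.09 and 2 at an unadjusted p under 0.05 in either direction, where 8.02% of all rows were. WRKY33, a defence regulator that binds the ORA59 promoter, had 7.04, 6.98 and 7.37 against 5.89, 6.33 and 6.61 (log2 fold 0.86, SE 0.20, limma adjusted p 0.19). WRKY50 stood at -0.42 (SE 0.13, limma adjusted p 0.356), and GRX480, a glutaredoxin gene linked to suppression of ORA59, at 0.22 (SE 0.13, limma adjusted p 0.766).

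**Figure D4:**
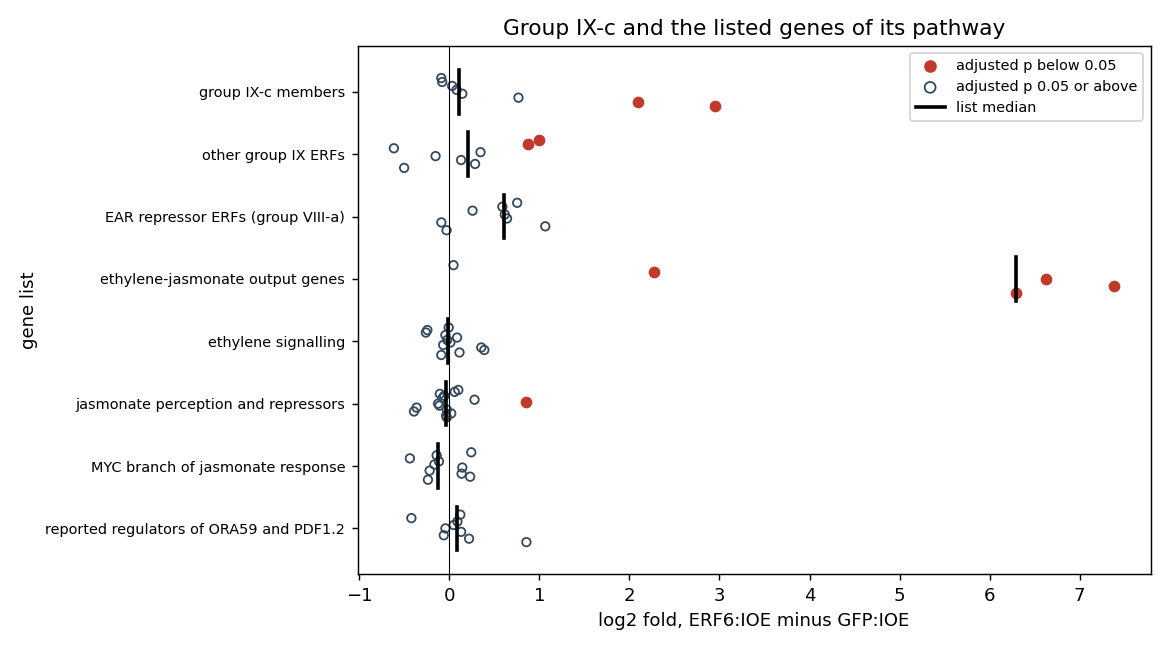
Log2 fold of ERF6:IOE minus GFP:IOE (horizontal axis) for every measured gene of each list (vertical axis), filled red where the adjusted p was below 0.05 and open otherwise, with a bar at each list's median. Group IX-c has 2 filled points of 8, the output genes 4 of 5, the other group IX genes 2 of 8, jasmonate perception and repressors 1 of 15, and the remaining lists none. Of all rows 0.724% were called in either direction.

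The rows most like ORA59 were found by the root mean square difference over the 6 arrays, after subtracting each row's GFP:IOE mean on the log2 scale. The nearest was WRKY18, a regulator of defence genes, at a distance of 0.18. CYP71B22, a cytochrome P450 gene, followed at 0.20, DJ1A, of the DJ-1 family, at 0.31, AT4G18205 at 0.31 and the methyltransferase gene IGMT1 at 0.35. Their log2 folds ran from 2.65 (IGMT1) to 3.17 (WRKY18), around the 2.95 of ORA59. ERF15 was farther from ORA59, at 0.64, with 21 rows nearer.

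For ERF15 the nearest row was GSTF10, a glutathione transferase gene, at 0.09. After it came CYP81F2, whose P450 enzyme modifies indole glucosinolates, at 0.14, the polyol transporter gene PMT5 at 0.16, AT1G80180 at 0.16 and AT1G19320 at 0.17. Their log2 folds lay between 1.91 (AT1G80180) and 2.27 (CYP81F2). This measure mostly selects rows with a similar fold between the lines, and all 6 arrays are shared by the genes compared. Mean control levels of IGMT1, CYP81F2 and AT1G19320 were below the lower quartile of rows, so their folds are approximate.

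**Figure D5:**
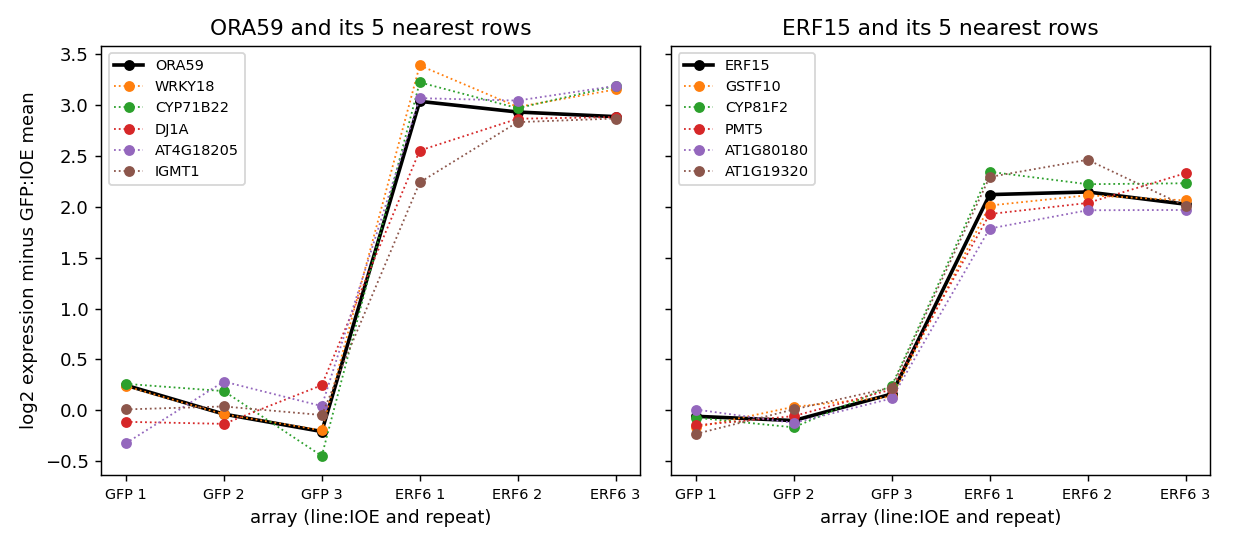
Log2 expression minus the GFP:IOE mean of the same gene (vertical axis) on each of the 6 arrays (horizontal axis) for ORA59 (left, black) and ERF15 (right, black) with the 5 rows nearest to each (dotted). Both groups of rows step up together between the lines, and the rows around ORA59 spread most on ERF6:IOE repeat 1.

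Markers of the tissue and of other cells were checked as lists, since bulk arrays cannot tell fewer cells of a type from less RNA per cell. The 5 measured of 7 leaf markers lay at or above percentile 98.9 of all rows, with mean levels per array of 12.35 to 12.60 in GFP:IOE and 12.50 to 12.68 in ERF6:IOE. No marker of any cell type passed the test (limma), and 1 root marker, CASP1 at -0.24 (SE 0.09), had an unadjusted p under 0.05. Median log2 folds were 0.11 for leaf markers, 0.14 for shoot meristem markers, 0.04 for vascular and for stomatal lineage markers, -0.08 for trichome markers and -0.14 for root markers. Shoot meristem markers ranged per array from 4.36 to 4.66 in GFP:IOE and 4.51 to 4.77 in ERF6:IOE, and 0 of the 4 genes exceeded the array median (4.85 to 4.90) on all arrays. Root markers ranged from 5.56 to 5.65 and from 5.45 to 5.54, with PYK10 alone of the 5 above the median on all arrays. Stomatal lineage markers ranged from 6.75 to 6.78 and from 6.71 to 6.92, trichome markers from 5.66 to 5.79 and from 5.58 to 5.65, and vascular markers from 5.02 to 5.30 and from 4.95 to 5.35. Their part in the rise of ORA59 and ERF15 was not tested.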

How the data were processed

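The deposited table holds log2 values of expression for 30237 rows on 6 arrays. RMA, limma and genome build TAIR9 are named per the submitters' processing notes, with no version or settings. RMA equalises the distributions of the arrays and compresses low values. Gene symbols came by locus from a RefSeq name table of assembly TAIR10.1 (29715 rows matched), so no coordinates are given.

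ERF6:IOE was compared with GFP:IOE in limma 3.58.1 (lmFit, eBayes, R 4.3.3) on all rows with no filter, two-sided. The repeat numbers did not enter the fit, because same-numbered arrays had correlations of deviations of 0.19, 0.078 and 0.21, 1 of them under 0.1. Where a listed locus had several rows, the brighter one was used. No set test was run.

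The members, lists and rules were chosen with earlier results of these data known. Named were all members, ERF6, up to 3 genes per list with the largest absolute moderated t, called list genes, and the 5 rows nearest to ORA59 and ERF15. CHIB and PYK10 were chosen for naming with their values in view. The fit was also tested on simulated data. The number of arrays limits the precision. Array medians ran from 4.85 to 4.90, and no 2 arrays were identical.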

Additional observations from a re-analysis of the deposited data

How the results depend on the processing

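ORA59 and ERF15 passed in all 16 alternatives, with log2 folds from 2.85 to 3.07 and from 2.02 to 2.21 and adjusted p-values up to 0.0129 and 0.0295 (limma), and ERF98 passed in 0 of 16 (0.0695 to 0.602). A block for the repeat number gave 143 rows higher and 5 lower, with ORA59 and ERF15 again the members called, and ended the call of JAZ6 (limma adjusted p 0.0595). All 6 arrays correlated best with their own number in the other line, a hint of pairing that the labels do not give. Against 211 rows higher and 8 lower as reported, the filter on dim rows gave 277 and 14, and the variance trend 277 and 11. Leaving out arrays, which leaves fewer samples, gave 45 to 126 rows higher and 1 to 6 lower (87 to 126 higher with 1 array left out). In those same settings the log2 fold changed sign for members near 0, namely ERF14 (-0.34 to 0.16), ESE1 (-0.063 to 0.20), ERF96 (-0.26 to 0.19) and ERF91 (-0.020 to 0.20). It also did so for the markers CUC2 (-0.0024 to 0.21), EPF1 (-0.049 to 0.15), GL2 (-0.14 to 0.25), LHCB2.1 (-0.0025 to 0.26), STM (-0.15 to 0.38), TRY (-0.28 to 0.032) and XCP2 (-0.065 to 0.13). The cause was not tested. None of these had passed, and of 936 values of 59 named genes 28 changed sign, 0 of them for a called gene. The shortfall of ERF15 from the ORA59 fold ran from -0.67 to -1.01 with arrays left out. Signal over background was not analysed here.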
